A study of Homo sapiens with 2 samples.

Results

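The members described here are the oligonucleotide probes of the second custom series on a human circRNA array that were printed at 10 places each. They were chosen from the spot tables of both arrays as probes that are no control, whose name starts with CUST_H6L and whose name appears at exactly 10 spots on each array. There were 1166 such probes, holding 11660 spots on each array, among 79404 probes of that series and 138405 probes that are not controls. Each of the other 78238 probes of the series was printed once, and no probe of it was printed any other number of times. The members are spread over the numbering of the series, from CUST_H6L_00015 to CUST_H6L_79259, and every one is 60 bases long.

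The study asked how RNA levels change in HepG2 cells, a line grown from a human liver tumour, when the transcription factor FOXA1 is silenced. One array held RNA of cells given a scrambled control siRNA (NC) and the other held RNA of cells given a mixture of 3 siRNAs against FOXA1 (siFOXA1), both taken 48 h after transfection. The labels give HepG2 for both groups and no other allele. Their protocol fields speak of tissue and of a water bath and name no transfection, so the culture and siRNAs are given as in the study's methods. Each group is 1 RNA sample on 1 array, so no p-value is given, and the study's methods do not say how many cultures it came from. Spots of a probe share that RNA sample and measure printing, hybridisation and scanning noise alone. Each array measured RNA from many cells together, so fewer cells of a kind and less RNA per cell cannot be told apart. No member could be tied to FOXA1 or to a gene that marks liver cells, so neither the silencing nor the cell type is checked by these probes.

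FOXA1 is a pioneer factor: it binds its sites in closed chromatin and lets other factors reach enhancers of liver genes. Circular RNAs form by back-splicing, in which the end of an exon is joined to the start of an exon upstream, and a probe laid across that joint can read the circle apart from the linear transcript. MicroRNAs are cut from hairpin precursors, and a mature microRNA finds its targets mainly through the seed at its bases 2 to 8. The deposited files give each probe's sequence but no gene, transcript or circle for it, so whether a member spans a back-splice joint was not determined.

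Most members stay without a gene name. All 60 bases of 13 members lay within a microRNA hairpin of RefSeq on the same strand, which is 1.11% of the members against 0.879% of the series' probes printed once. Of these 13, 4 were detected on both arrays, where detected means that at least 50% of the probe's kept spots were well above background by the scanner software. The sequences of these 4 follow because they match a named hairpin, though which RNA gives their signal was not determined. Capitals mark stretches of 8 or more bases that lie in a mature microRNA listed for the hairpin in the table used here. No mature sequence of MIR621 and none of the other arm of MIR21 was used, so lower case says nothing about those.
CUST_H6L_73861, MIR21: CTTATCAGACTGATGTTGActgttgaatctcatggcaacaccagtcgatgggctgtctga
CUST_H6L_00249, MIR621: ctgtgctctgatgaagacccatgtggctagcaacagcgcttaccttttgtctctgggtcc
CUST_H6L_01589, MIR6788: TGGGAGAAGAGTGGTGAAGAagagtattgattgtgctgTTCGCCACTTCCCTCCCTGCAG
CUST_H6L_00992, MIR3978: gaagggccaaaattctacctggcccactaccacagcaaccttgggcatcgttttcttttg

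In the GRCh38.p14 build the MIR21 probe lies at chr17:59841276-59841335 on the plus strand, within the span of the protein-coding gene VMP1. The MIR621 probe lies at chr13:40810802-40810861 on the plus strand, where the spans of SLC25A15 and the pseudogene TPTE2P5 also run. The MIR6788 probe lies at chr18:10759584-10759643 on the minus strand within the span of PIEZO2, and the MIR3978 probe at chrX:110082158-110082217 on the plus strand within the span of TMEM164. The gene table used here gives spans without strand or exons, so it was not determined whether these places are exonic or intronic. A 60-base probe of a hairpin can be reached by the primary transcript, by the precursor and by RNA of a gene read through it, and the array does not tell them apart. The RefSeq mature sequences behind the capitals are printed below, each with its seed in capitals, and these 3 have different seeds.
hsa-miR-21-5p: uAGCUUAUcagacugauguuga
hsa-miR-6788-5p: cUGGGAGAagaguggugaaga
hsa-miR-6788-3p: uUCGCCACuucccucccugcag

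The MIR21 probe was higher after FOXA1 silencing. MIR21 gives rise to miR-21, a microRNA abundant in many tumours. The signal, as the deposited intensity before scaling between arrays, ran from 63.1 over a median of 70.1 to 75.1 on the 10 NC spots and from 133 over a median of 148 to 155 on the 10 siFOXA1 spots. After scaling, its log2 change was 1.25 with a standard error over spots of 0.04, a 2.37-fold higher signal, and the spots of both arrays did not overlap. With normexp, another background correction, its log2 change was 0.80. The MIR621 probe had NC spots from 284 over a median of 289.7 to 301 and siFOXA1 spots from 205 over a median of 216 to 228. Its log2 change was -0.23 with a standard error of 0.02, which is under 1.4-fold although the spots of both arrays did not overlap. The MIR6788 and MIR3978 probes had log2 changes of 0.01 and 0.21, and the spots of both arrays overlapped for each.

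Of the other 9 hairpin probes, that of MIR4677 had 5 of 10 spots well above background on NC and 0 of 8 on siFOXA1, with a signal between 6.58 and 15.5 on NC. The probes of MIR200C, which marks epithelial cells, and of MIR126, which is known from endothelial cells, had no spot well above background on either array. Their NC medians were 4.69 and 2.05, near the floor that the scanner software writes for spots without signal. The probes of MIR520C, MIR4491, MIR4303, MIR3161 and MIR4694 had no such spot either, and that of MIR5191 had 1 of 8 on siFOXA1. Away from hairpins, all 60 bases of 1 member lay in the RefSeq window around the start of FYB1. The match was at chr5:39270617-39270676 on the same strand as the gene, and this member was not detected on either array. One more, CUST_H6L_68073, lay whole in the window of LOC105375271 at chr7:48114391-48114450 on the opposite strand. Its signal had a median of 41.3 on NC and 28.4 on siFOXA1, and the spots of both arrays overlapped.

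About 1 in 2 members was detected. On NC 586 members (50.3%) and on siFOXA1 562 members (48.2%) were detected, 556 on both arrays and 592 on at least 1. Detection was close to all or none across the spots of a probe: 522 members had every kept spot well above background on NC, 516 had none, and 128 lay between. On siFOXA1 these counts were 499, 529 and 138. The 3000 catalogue probes printed 10 times were detected more often, with 68.3% on NC and 68.3% on siFOXA1, while 50.9% and 49.5% of the series' probes printed once were. No member spot was saturated on either array. The scanner software had marked 412 member spots of the NC array and 405 of the siFOXA1 array as outliers, and without them 857 and 863 members had all 10 spots and the fewest spots left to any member was 6.

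The spread between spots set how small a change could be seen. For members detected on NC with a mean intensity over 1000, the median standard deviation between spots was 0.053 on the log2 scale, or 3.74% of the signal. It was 0.086 for intensities of 100 to 300 and 0.273 for those under 30, where 1 standard deviation is 20.9% of the signal. On siFOXA1 the values were 0.053, 0.087 and 0.288 for the same ranges. Over all 592 detected members the median was 0.12 on NC and 0.14 on siFOXA1, against 0.09 and 0.10 for the catalogue probes printed 10 times. A mean intensity under 30 was found for 28.5% of detected members against 21.9% of detected catalogue probes. Within each range of intensity on NC the members' median was also above that of the catalogue probes, by most at the dim end, with 0.273 against 0.254 under 30 and 0.053 against 0.052 over 1000. On siFOXA1 it was 0.288 against 0.269 under 30, and for 100 to 300 and over 1000 it was not above.

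The members with the largest spread show what a single spot could have given. The spots of CUST_H6L_74709 ran from 61.1 to 233 on NC and from 72.4 to 196 on siFOXA1, while its log2 change over all spots was 0.07. CUST_H6L_35926 had spots from 4.59 to 19.6 on NC and from 7.03 to 19.6 on siFOXA1. Its log2 change of 0.53 is past 1.4-fold with a standard error of 0.26, its spots overlapped, and it was 0.16 after normexp.

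Among the 592 members detected on at least 1 array, 55 were lower and 45 higher on siFOXA1 by more than 1.4-fold, which is 9.29% and 7.60%. Over all 72973 detected probes of the array these shares were 12.2% lower and 11.5% higher, but most of those rest on 1 spot. Over the detected catalogue probes printed 10 times they were 9.75% and 10.3%. The remaining 492 members stayed within 1.4-fold in either direction. The median log2 change of the detected members was -0.05, with quartiles of -0.24 and 0.11, and it was -0.02 for the catalogue probes printed 10 times and -0.03 for all probes. The members at the threshold were close to it on either side: the nearest past it had ratios of 0.708 and 1.402, and the nearest within it 0.719 and 1.392. Without scaling between the arrays, 126 members were lower and 26 higher, so the split between directions rests on the scaling. After normexp background correction 20 were lower and 18 higher. Under neither setting was the share over all probes computed.

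Setting each member against its own spots gave a different selection. In 89 members every siFOXA1 spot lay under every NC spot and in 59 every siFOXA1 spot lay over every NC spot. This was 15.0% and 9.97% of the detected members, where the shares over all 2685 detected probes printed 10 times were 18.1% and 14.2%. Both criteria together, past 1.4-fold and without overlap, held for 42 lower and 38 higher members, or 7.09% and 6.42%, against 8.01% and 8.38% of all probes printed 10 times. Each of these shares of the members was below that of the wider set, and no test of these differences was possible with 1 array a condition. Spots without overlap but a change within 1.4-fold occurred in 47 lower and 21 higher members, the smallest at 0.12 on the log2 scale. This was 7.94% and 3.55%, against 10.1% and 5.81% of all probes printed 10 times. The opposite case, past 1.4-fold with overlapping spots, occurred in 13 lower and 7 higher members, or 2.20% and 1.18% against 1.64% and 1.34%.

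The share of members without overlap between spots was higher at higher signal, while the share past 1.4-fold had no steady order. Catalogue probes printed 10 times took a similar course, except that their share without overlap did not rise further over 1000. Of the 169 detected members with a mean intensity under 30 over both arrays, 20.7% were past 1.4-fold and 10.1% had no overlap between spots. From 30 to 100, 100 to 300 and 300 to 1000 the shares past 1.4-fold were 15.5%, 13.4% and 18.5%, and those without overlap 17.1%, 37.5% and 43.2%. Of the 49 with a mean over 1000, 14.3% were past 1.4-fold and 46.9% had no overlap. For detected catalogue probes printed 10 times, the shares past 1.4-fold were 23.1%, 23.9%, 16.6%, 19.5% and 14.3% in these ranges, dimmest first. Their shares without overlap were 11.6%, 31.5%, 36.9%, 52.7% and 47.4%. The change exceeded 3 of its standard errors over spots in 274 members (46.3%), and the median of that ratio was 2.58. Over all probes printed 10 times these values were 52.4% and 3.25. These ratios compare 2 RNA samples and not the conditions, since each condition has a single array.

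Spots at the same place deviated alike on both arrays. Across 5223 spots of the 556 members detected on both arrays, the deviation of a spot from its probe's mean on NC correlated with that at the same place on siFOXA1 (Pearson's r = 0.29). These spots share places, probes and a slide. Taking differences place by place brought the median standard deviation of a member's differences from 0.187 to 0.148. The changes computed from the spots in rows 1 to 532 and from those in rows beyond 532 differed by a median size of 0.07 and correlated over 553 members (r = 0.93). Of 75 members past 1.4-fold without overlap that had spots in both parts of the array, 68 were past 1.4-fold in both. Their direction is the same in each by the choice of spots that do not overlap.

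The sequences of the members with the 4 largest decreases and of 3 of the largest increases follow, chosen among members detected on both arrays without overlap that were also past 1.4-fold with another background correction and another normalization. In CUST_H6L_60579 capitals mark 7 bases that pair with the seed of one of the siRNAs, and in CUST_H6L_27625 and the catalogue probe under it they mark 56 shared bases.
CUST_H6L_60579: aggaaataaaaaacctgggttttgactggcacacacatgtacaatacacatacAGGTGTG
CUST_H6L_24657: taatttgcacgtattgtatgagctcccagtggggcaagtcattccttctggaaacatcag
CUST_H6L_48072: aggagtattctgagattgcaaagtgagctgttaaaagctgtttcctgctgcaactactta
CUST_H6L_48064: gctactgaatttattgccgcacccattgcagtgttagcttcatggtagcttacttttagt
CUST_H6L_72012: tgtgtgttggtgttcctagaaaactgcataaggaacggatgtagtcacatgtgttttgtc
CUST_H6L_13893: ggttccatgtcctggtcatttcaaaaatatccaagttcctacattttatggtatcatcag
CUST_H6L_27625: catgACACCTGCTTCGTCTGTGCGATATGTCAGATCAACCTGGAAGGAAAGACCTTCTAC
A_23_P144896: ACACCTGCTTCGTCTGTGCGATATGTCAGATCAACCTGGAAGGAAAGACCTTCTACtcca

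The largest decrease was that of CUST_H6L_60579. Its 10 NC spots had intensities from 406 over a median of 427 to 448 and its 10 siFOXA1 spots from 31.5 over a median of 37.8 to 54.9. The log2 change was -3.26 with a standard error over spots of 0.07, a 9.55-fold lower signal. Normexp background correction brought it to -2.21. The probe CUST_H6L_24657 had NC spots from 103 over a median of 107.5 to 118 and siFOXA1 spots from 24.1 over a median of 29.0 to 32.9. Its log2 change was -1.73, with no spot of one array near the range of the other, and it was -0.86 after normexp.

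The next decreases were those of CUST_H6L_48072 and CUST_H6L_48064. The NC spots of CUST_H6L_48072 had intensities from 352 over a median of 371 to 405, and its siFOXA1 spots from 107 over a median of 115 to 123. Those of CUST_H6L_48064 ran from 707 over a median of 729 to 755 on NC and from 227 over a median of 253 to 258 on siFOXA1. No spot of the siFOXA1 array came near the NC range for either, and the log2 changes were -1.48 and -1.37, each with a standard error of 0.03. Among the probes numbered between them, CUST_H6L_48065 had a log2 change of 0.05, CUST_H6L_48066 of 0.98, CUST_H6L_48067 of -0.21 and CUST_H6L_48069 of -0.42, all detected on both arrays, and CUST_H6L_48070, detected on NC alone, of -0.60. A further 6 members completed the 10 largest decreases, CUST_H6L_24596, CUST_H6L_24607, CUST_H6L_75115, CUST_H6L_02672, CUST_H6L_17590 and CUST_H6L_17589, with log2 changes between -0.99 and -0.81. After normexp those of CUST_H6L_24596, CUST_H6L_24607 and CUST_H6L_75115 were -0.63, -0.54 and -0.54. In all, 19 lower members met the conditions for this list.

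The largest increase was that of CUST_H6L_72012. All of its 10 NC spots were dim but well above background, from 11.3 over a median of 17.7 to 21.8, and its 9 kept siFOXA1 spots ran from 178 over a median of 189 to 195. The log2 change was 3.73 with a standard error of 0.11, a 13.3-fold higher signal, and it was 1.88 after normexp. The probe CUST_H6L_13893 went from 13.7 to 24.6 on NC, with a median of 20.9, to between 63.1 and 79.3 on siFOXA1, with a median of 69.4. Its log2 change was 2.01 with a standard error of 0.09, and 0.86 after normexp.

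CUST_H6L_27625 had the smallest standard error of the 3. Its NC spots had intensities from 481 over a median of 492 to 513 and its siFOXA1 spots from 1416 over a median of 1502 to 1543. The log2 change was 1.79 with a standard error of 0.02. The catalogue probe A_23_P144896, printed once, shares 56 of its bases and had a log2 change of 1.84, from 492 to 1534. The other 7 of the 10 largest increases were CUST_H6L_70559, CUST_H6L_38894, CUST_H6L_76624, CUST_H6L_12306, the MIR21 probe CUST_H6L_73861, CUST_H6L_20972 and CUST_H6L_51521, with log2 changes from 1.60 down to 1.06. After normexp the changes were 0.96 for CUST_H6L_70559, 0.64 for CUST_H6L_38894, 0.59 for CUST_H6L_12306 and 0.56 for CUST_H6L_20972. In all, 17 higher members met the conditions.

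At the other end were the members chosen for a change near 0 and a small standard error, and this depends on the scaling between arrays. CUST_H6L_21043 had NC spots from 3844 over a median of 4025 to 4217 and siFOXA1 spots from 3348 over a median of 3511 to 3592. The NC array was 1.15 times brighter at its 75th percentile, and after scaling the log2 change was 0.00 with a standard error of 0.02, but 0.05 with quantile normalization and -0.09 after normexp. The values for CUST_H6L_25586 and CUST_H6L_50682 were 0.00 and 0.00 with standard errors of 0.03 and 0.03, and -0.05 and -0.09 after normexp. The members with the highest signals on the array, CUST_H6L_53339, CUST_H6L_59126 and CUST_H6L_27624, had NC medians of 47659, 39238 and 32956 and log2 changes of -0.06, -0.04 and -0.10, which quantile normalization turned to 0.06, 0.08 and 0.03. Signals of different probes depend on their sequence and are not compared as amounts of RNA.

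On NC alone 30 members were detected and on siFOXA1 alone 6, which is 5.07% and 1.01% of the detected members against 2.79% and 1.82% of all detected probes printed 10 times. Their changes are bounds against the lowest signal well above background on the other array, on the scale without normexp. CUST_H6L_52448 had 10 siFOXA1 spots from 15.4 over a median of 24.7 to 31.2 and no NC spot well above background, the highest of them at 6.20. It was at least 2.75-fold higher on siFOXA1, while its log2 change after normexp was 0.61, less than that bound. The bounds for CUST_H6L_09855 and CUST_H6L_12931 were at least 1.96-fold and at least 1.43-fold higher. In the other direction, CUST_H6L_65459 was at least 1.74-fold lower, with NC spots from 13.7 to 28.4 and siFOXA1 spots from 3.76 to 12.6, and those ranges stand apart before scaling but overlap after it. The bounds for CUST_H6L_43867 and CUST_H6L_20865 were at least 1.46-fold and at least 1.38-fold lower. The spots of both arrays overlapped for these and for CUST_H6L_12931. CUST_H6L_20865 had 4 of 10 siFOXA1 spots well above background, and the log2 changes of CUST_H6L_43867 and CUST_H6L_20865 after normexp were -0.06 and -0.01. Those of CUST_H6L_09855, CUST_H6L_12931 and CUST_H6L_65459 were 0.27, 0.19 and -0.13, so none of the 6 bounds was reached after normexp. Normexp was run with an offset of 50, which shrinks changes of dim probes by its construction, so it cannot decide whether these bounds hold. Only 2 of the 30 and 3 of the 6 had a bound past 1.4-fold.

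Some RNAs were read by more than 1 probe. In all, 62 members (5.32%) shared 20 or more bases in a row with another probe of the array on either strand, as counted over all probes, and 37 shared 30 or more. Only 1 pair of members did so with each other, and the 55 shared bases are in capitals.
CUST_H6L_08910: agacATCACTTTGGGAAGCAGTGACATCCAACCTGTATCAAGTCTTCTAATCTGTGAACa
CUST_H6L_66907: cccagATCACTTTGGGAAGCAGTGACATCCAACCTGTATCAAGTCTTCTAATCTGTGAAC
CUST_H6L_08910 had a median intensity of 99.4 on NC and 83.9 on siFOXA1, and CUST_H6L_66907 one of 93.8 and 86.7. Their log2 changes were -0.05 and 0.04 with standard errors of 0.05 and 0.07, a difference within the spread of their spots.

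There were 6 members with a copy with the same 60 bases under another name, printed once. Of these, 4 were detected on both arrays. CUST_H6L_39324 had a log2 change of 0.77 against 0.63 for its copy, CUST_H6L_78099 of 0.36 against 0.38, CUST_H6L_71893 of -0.31 against -0.43, and CUST_H6L_17893 of 0.09 against -0.05. The changes of a member and its copy thus differed by between 0.01 and 0.15. The pairs CUST_H6L_66992 and CUST_H6L_03943 with their copies were not detected and differed by 1.2 and 0.55 at signals near the floor.

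Over 36 members with an overlapping probe on the same strand, both detected on both arrays, the change of the member and that of the probe with the longest shared stretch had the same direction in 31 and differed by a median of 0.08. For the 20 of them with 30 or more shared bases, the direction was the same in 16 and the median difference 0.08. The probes share arrays and only part of their bases, and a pair may read different RNAs, as for a repeated sequence. Of the 36 members, 7 were past 1.4-fold, and for 6 of them the overlapping probe was too, in the same direction. Among all probes detected on at least 1 array, 12.2% were lower and 11.5% higher by that much. CUST_H6L_51521 with a log2 change of 1.06 shared 40 bases with a probe at 1.01, and CUST_H6L_64928 with -0.69 shared 29 bases with a catalogue probe at -0.63. The other one was CUST_H6L_00090, at 0.80 against 0.35 for a probe sharing 30 bases and 0.69 for CUST_H6L_00060, which shares 21. After normexp its own change was 0.29.

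For 6 members, a probe reading the other strand over 20 or more bases was detected on both arrays as they were. Counted with the longest stretch each, the changes had the same direction in 1 of the 6. CUST_H6L_19028 had a log2 change of 0.11 where the catalogue probe over 53 of its bases on the other strand had -0.40, and CUST_H6L_11714 had 0.11 where such probes had -0.51 and -0.61. These are few members, and the difference from overlap on the same strand was not tested.

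In composition the members resembled the rest of their series. Their median GC content was 43.3%, with quartiles of 40% and 45% and a range from 21.7% to 55.0%, and the probes printed once had the same median and quartiles. CG pairs occurred at 0.227 of the frequency that the C and G content gives, against 0.221 in the probes printed once and 0.322 in the catalogue probes printed 10 times. No member held a run of 1 base longer than 6. Members over 45% GC were detected more often than those up to 40%, in 75% of 104 against 40% of 355, and the median log2 change was 0.00 in the former and -0.14 in the latter. Across the 556 members detected on both arrays, GC content and log2 change had a Pearson's r of 0.06, over probes that share the same arrays.

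In all, 13 members held a stretch that pairs with the seed of at least 1 of the siRNAs against FOXA1, counted as the 7 bases opposite bases 2 to 8 of the guide strand. Of these, 7 were detected, with a median log2 change of -0.09, and 1 of them was lower by over 1.4-fold and 0 were higher, where 12.2% of all detected probes were lower. The 1 was CUST_H6L_60579, the member with the largest decrease. Whether the seed took part in that value was not tested.

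The numbers in the probe names follow the genome over part of the series. Of the series' probes, 460 shared at least 40 bases with RefSeq windows around gene starts on 1 chromosome. In the list of these probes sorted by number, where neighbours often lie many numbers apart, 288 of the 459 neighbouring pairs lay on the same chromosome and 248 also did not step back in position. Between the numbers 12000 and 32000, a range chosen after the matches were seen, 136 such probes made 135 neighbouring pairs in the sorted list, of which 110 lay on the same chromosome and 108 also did not step back in position. The place of a member without a match was not established. Over the 578 pairs of a detected member and a detected probe printed once, 1 number apart, the log2 changes had a Pearson's r of 0.25 and Spearman's rho of 0.19. At 10 numbers apart the values over 568 pairs were -0.05 and -0.04. All points share the same pair of arrays.

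The largest increase, that of CUST_H6L_72012, lies outside this range of numbers. It is shown with its neighbours because their signals were higher too and they share at most 5 bases in a row with it.
CUST_H6L_72011: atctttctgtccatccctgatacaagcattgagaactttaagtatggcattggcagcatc
CUST_H6L_72013: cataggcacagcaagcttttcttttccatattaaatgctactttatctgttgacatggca
CUST_H6L_72014: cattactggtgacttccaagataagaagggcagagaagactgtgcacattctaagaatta
CUST_H6L_72015: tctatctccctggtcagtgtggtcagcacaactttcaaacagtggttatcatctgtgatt
CUST_H6L_72016: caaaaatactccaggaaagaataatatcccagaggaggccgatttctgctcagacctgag
Each was printed once. CUST_H6L_72011 went from an intensity of 33.6 on NC to 71.6 on siFOXA1, CUST_H6L_72015 from 44.8 to 145.5 and CUST_H6L_72016 from 20.1 to 43.8, which are log2 changes of 1.29, 1.90 and 1.32. CUST_H6L_72013 and CUST_H6L_72014 were not well above background on NC, at 9.50 and 5.16, and stood at 113 and 83.1 on siFOXA1. The run ended within a few numbers: CUST_H6L_72008 had a log2 change of -0.01 and CUST_H6L_72018, also a member, one of 0.17. This run was picked after its values were seen.

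A second run held the adjacent members CUST_H6L_17589 and CUST_H6L_17590, which share 6 bases in a row at most.
CUST_H6L_17589: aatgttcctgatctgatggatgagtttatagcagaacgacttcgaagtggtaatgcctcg
CUST_H6L_17590: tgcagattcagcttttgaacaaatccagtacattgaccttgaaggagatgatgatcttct
The NC spots of CUST_H6L_17589 had intensities from 1256 over a median of 1294 to 1373 and its siFOXA1 spots from 602 over a median of 641 to 693. Those of CUST_H6L_17590 ran from 463 over a median of 501 to 532 and from 210 over a median of 244 to 275. The log2 changes were -0.81 and -0.83 with standard errors of 0.02 and 0.04, no further apart than these errors allow. The probes CUST_H6L_17587 and CUST_H6L_17588 before them, printed once, had -0.78 and -0.66, and CUST_H6L_17593 after them had -0.77. Next to the members, CUST_H6L_17591 had 0.28 at intensities of 11.8 and 12.5, and CUST_H6L_17594, further on, had 0.49.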

How the data were processed

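The members, lists and comparisons were chosen with earlier results of these data known. Total RNA was copied to cRNA, labelled with Cy3 and hybridised to 1 array a group, both on 1 slide and in 1 scan, per the labels and file headers. The deposited spot tables hold intensity values, background-corrected by the scanner software (Agilent Feature Extraction 10.7.1.1), with a small surrogate in place of spots without signal. The deposited matrix holds log2 values of the same arrays, which were recomputed to a median difference of 3.24e-07 as quantile-normalised means of log2 signals per probe. Here flagged spots were left out, log2 intensities were averaged over a probe's spots, and each array's 75th percentile over 138405 probes (86.2 for NC, 75 for siFOXA1) was subtracted. A change is siFOXA1 minus NC. Its standard error joins the variances over spots of both arrays. Bounds used the lowest spot well above background (9.73 and 9.42). Members all at the surrogate on both arrays had a median log2 change of 0.15. Members were named by a rule on size of change, signal, spread, bounds and shared bases. Those matched to RefSeq and the neighbours by number were added outside it, the latter after their values were seen. Sequences were matched to RefSeq tables (GRCh38.p14) on both strands, in stretches of 20 bases or more. Steps were tested on simulated spots. Normexp used limma 3.58.1 in R 4.3.3; the rest used Python 3.11.15 with numpy and pandas. No genome was used here. The grid build in the headers is hg19.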

Additional observations from a re-analysis of the deposited data

How the results depend on the processing

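No paired analysis was possible because each group is 1 array. The counts of members past 1.4-fold and without overlap, the count past 3 standard errors and the median change were recomputed under 15 settings, those past 1.4-fold at 2 other thresholds too. Without scaling between arrays the counts past 1.4-fold were 126 lower and 26 higher, those without overlap 174 and 34, and the median log2 change -0.25. After normexp with an offset of 50, 20 members were lower and 18 higher by over 1.4-fold, while 89 and 56 had no overlap; the offset shrinks changes of dim probes by its construction. With spots compared place by place, 142 lower and 89 higher members had every difference on 1 side, which asks for less than separate ranges. From the spots in rows beyond 532 alone 135 lower members had no overlap, since fewer spots overlap less easily. Without the filter on dim probes 430 members changed by over 3 standard errors. At 1.2-fold 135 of the 592 detected members were lower and 86 higher, and at 2-fold 9 and 16. Shares over all probes were not computed under these settings, so the counts are not set against the wider array. Sharing of 30 in place of 20 bases left 37 members. The other 76 values stayed within 1.5 times the count or within the spread of spots. No named member past 1.4-fold without overlap turned direction, where the 20 with the largest changes were chosen as past 1.4-fold also after normexp and quantile normalization. The deposited matrix holds no spots, so it gave no overlap counts. Depth is limited by 1 array a condition and, for dim members, by signal near background.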

Other observations

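Of the 20 members with the largest changes, 15 had a probe printed once that was 1 number away and detected on both arrays. Of those 21 probes, 13 (61.9%) had the same direction as the member, close to the 55.9% of all 578 such pairs of a detected member and probe. In the same direction, 8 were also past 1.4-fold, beside 7 of the members. Among the series' 37121 probes printed once and detected on both arrays, 3216 were lower and 3141 higher by that much. Over all probes detected on at least 1 array, 12.2% were lower and 11.5% higher. The nearest detected probes to the largest decrease, CUST_H6L_60579, had log2 changes of -0.38 (CUST_H6L_60577) and -0.15 (CUST_H6L_60581) against its -3.26. The probes printed once on either side of CUST_H6L_24657, with a log2 change of -1.73, had changes of -0.91 (CUST_H6L_24656) and -1.18 (CUST_H6L_24658). The probe CUST_H6L_24597 had -0.84 beside CUST_H6L_24596, and CUST_H6L_24608 had -0.38 beside CUST_H6L_24607. CUST_H6L_24596 and CUST_H6L_24607, at -0.99 and -0.98, carry numbers between CUST_H6L_24581 and CUST_H6L_24620. The flanking probes share at least 40 bases with the RefSeq windows of IQCF3 and LOC107986088 on chromosome 3, each named by the first window matched. The places of CUST_H6L_24596 and CUST_H6L_24607 themselves were not established.

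Large changes could also part company at adjacent numbers. CUST_H6L_20970 shares at least 40 bases in a row with the start window of APOC1, a lipoprotein gene of the liver, on chromosome 19. It was named by the first window matched, and which RNA it reads was not determined. Its signal went from 328.9 on NC to 114.5 on siFOXA1, a log2 change of -1.32. The next probe, CUST_H6L_20971, had -1.38. It shares 23 bases in a row with CUST_H6L_20970, so both may read the same RNA, while the member CUST_H6L_20972 after it, sharing at most 8 bases in a row with either, had 1.23. Its 8 kept NC spots ran from 27.4 to 32.4 and its 10 siFOXA1 spots from 52.6 to 67.9. CUST_H6L_27624, 1 number before CUST_H6L_27625, had a log2 change of -0.10 beside one of 1.79. These probes were picked after their values were seen, and the neighbours printed once rest on 1 spot each.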
